A study of Mus musculus with 6 samples.

Results

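The transcripts described here are 10 immediate-early genes outside the AP-1 family, Egr1, Egr2, Egr3, Nr4a1, Nr4a2, Nr4a3, Ier2, Ier3, Klf4 and Klf6, in splenic CD11c+ dendritic cells with or without Map3k7. Every probe set whose platform gene symbol was one of these names was taken, which gave 20 of the 45037 probe sets tested and 10 of the 17097 genes with a probe set of 1 symbol. The knockout group held 3 samples from mice labelled Map3k7CreER, and the wild-type group held 3 samples from mice labelled WT. All were C57Bl/6 mice given tamoxifen in vivo for 3 days, and CD11c+ cells were then sorted from their spleens by flow cytometry, with 1 Affymetrix array per sample. The promoter that drives the inducible Cre is not given in the sources used here, the controls are labelled WT with no Cre named, and no label says whether a group's samples are from different animals. The p-values therefore reflect the spread between these samples, which may be technical.

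Immediate-early genes are transcribed within minutes of a stimulus from factors already present in the cell, without new protein synthesis. In their promoters, serum response factor with its ternary complex partners binds the CArG box and CREB binds cAMP response elements. Both routes are fed by members of the MAP kinase family, which holds ERK, JNK and p38. TAK1, the product of Map3k7, is a kinase through which Toll-like and cytokine receptors activate JNK, p38 and the IKK complex. In myeloid cells the products of these genes tune inflammatory transcription, and the same genes are also known to be induced while tissue is dissociated into single cells.

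Map3k7 was checked first. On its 3 bright probe sets the log2 difference, knockout minus wild type, was -3.25, -2.60 and -2.34 (limma, Benjamini-Hochberg adjusted p = 0.000165, 0.00128 and 0.0181), and on its 2 dim probe sets it was -0.65 and -0.19, which did not pass. The median probe set of an array read 3.77 to 3.81 (log2). Of 12 dendritic cell markers 0 passed, but 10 differences were negative, and the summed linear signal was 44300 to 45900 in knockout arrays and 46100 to 53100 in wild-type arrays. Itgax, which encodes CD11c, averaged 10.93 ± 0.10 in knockout cells and 11.16 ± 0.16 in wild-type cells (log2, SD, 3 arrays each). The 4 dendritic cell markers lower in every knockout array than in any wild-type array, as 10.6% of all genes were, were Cd8a (log2 difference -1.47), Xcr1 (-0.81), Zbtb46 (-0.75) and Irf8 (-0.59), Flt3 (0.35) was higher in every one, and Cd8a passed in 5 of 15 alternative fits. Of 12 macrophage markers 4 rose (Cd163, Cd5l, Mertk and Trf) and 0 fell, beside 1.08% of all genes that rose and 0.591% that fell. The summed linear signal of the 12 was 2640 to 3950 in knockout arrays and 2290 to 2500 in wild-type arrays. Of these 12 differences 10 were positive and 2 negative. Hmox1 (-0.53) was lower in every knockout array than in any wild-type array, and 6 macrophage markers were higher in every one, beside 10.6% of all genes in each direction. Of 4 erythroid markers Hbb-b2 fell, and their sum was 92 to 246 in knockout arrays and 638 to 2610 in wild-type arrays. In the marker lists of plasmacytoid dendritic cells (3 genes), monocytes (6), neutrophils (8), B cells (4), T cells (3) and NK cells (5), 0 passed. Neutrophil markers summed to 559, 1470 and 367 in knockout arrays 1, 2 and 3, against 180 to 314 in wild-type arrays. The log2 difference was 2.28 for S100a8 (limma adjusted p = 0.147), 1.53 for S100a9 and 0.49 for Csf3r. It ran from -0.14 to 0.15 for Camp, Cxcr2, Mpo, Ltf and Ngp. B cell markers summed to 371 to 433 in knockout arrays and 467 to 606 in wild-type arrays. The monocyte markers Cx3cr1 (-1.02), Treml4 (-0.93) and Ace (-0.49) were also lower in every knockout array than in any wild-type array. The other 3 monocyte markers, Ccr2 (0.57), Csf1r (0.28) and F13a1 (0.10), stood higher, with overlapping groups. When each array was left out in turn, Cd163 passed in 5 of 6 fits, Mertk in 3, Cd5l in 2, Trf in 1 and Hbb-b2 in 2, and Hbb-b2 stood at -0.12 on its brightest probe set not ending in _x_at or _s_at. RMA gives no zero, so no marker can be called absent. The part of these cells in the results below was not tested, and fewer cells of a type cannot be told apart from less RNA per cell.

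The 3 NR4A promoters are shown because they share a sequence feature that the choice of genes did not use. Each is 300 bases of RefSeq sequence on GRCm38.p6, 250 before and 50 after the listed start, read 5′ to 3′ on the gene's strand. Capitals mark matches, on either strand, to the core TGACG of the cAMP response element, to the EGR site GCGNGGGCG or to the NF-kB site.
Nr4a1 at chr15:101266596-101266895, plus strand: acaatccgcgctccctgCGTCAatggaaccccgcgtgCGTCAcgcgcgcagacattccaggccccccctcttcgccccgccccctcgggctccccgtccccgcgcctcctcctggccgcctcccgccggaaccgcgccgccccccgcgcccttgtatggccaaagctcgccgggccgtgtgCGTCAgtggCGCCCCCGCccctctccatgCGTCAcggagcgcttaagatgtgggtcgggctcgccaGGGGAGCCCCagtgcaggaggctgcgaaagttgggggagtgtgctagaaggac
Nr4a2 at chr2:57123954-57124253, minus strand: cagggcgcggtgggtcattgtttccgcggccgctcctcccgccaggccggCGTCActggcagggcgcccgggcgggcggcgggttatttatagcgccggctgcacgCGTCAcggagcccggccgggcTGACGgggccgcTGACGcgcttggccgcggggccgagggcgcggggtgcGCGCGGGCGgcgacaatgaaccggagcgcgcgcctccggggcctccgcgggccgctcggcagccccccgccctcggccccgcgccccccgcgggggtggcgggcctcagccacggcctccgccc
Nr4a3 at chr4:48045055-48045354, plus strand: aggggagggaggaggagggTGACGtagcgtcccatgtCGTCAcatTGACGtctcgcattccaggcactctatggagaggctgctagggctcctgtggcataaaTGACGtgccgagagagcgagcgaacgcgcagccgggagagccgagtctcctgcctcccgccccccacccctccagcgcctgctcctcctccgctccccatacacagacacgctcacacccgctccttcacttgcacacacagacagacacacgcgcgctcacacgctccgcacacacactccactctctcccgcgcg

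The core TGACG occurred 4 times in each of these 3 promoters, whereas 0.231% of the 32851 mouse promoters in the same table held at least 4 copies and 20.8% held at least 1. This motif was added after the sequences had been seen, and the cutoff of 4 copies is the count these same promoters held. The share is therefore a description and not a test of enrichment. The whole element TGACGTCA, held by 1.79% of promoters, the NR4A site AAAGGTCA (1.51%), the AP-1 site TGANTCA (7.81%) and the CArG box (1.63%) were not matched in these windows. The EGR site, held by 5.55% of promoters, occurred once in Nr4a1 and once in Nr4a2 and did not overlap a core. The Nr4a1 window also held 1 match to the NF-kB site (8.46% of promoters), across the listed start. The Egr2 and Ier3 promoters are shown for comparison. Egr1, Egr3 and Ier2 had no window in the search, so the Egr2 window does not stand for Egr1. Whether a motif goes with a difference between groups was not tested. In Egr2, capitals mark the CArG box and TGACG cores, and in Ier3 they mark the NF-kB site.
Egr2 at chr10:67537619-67537918, plus strand: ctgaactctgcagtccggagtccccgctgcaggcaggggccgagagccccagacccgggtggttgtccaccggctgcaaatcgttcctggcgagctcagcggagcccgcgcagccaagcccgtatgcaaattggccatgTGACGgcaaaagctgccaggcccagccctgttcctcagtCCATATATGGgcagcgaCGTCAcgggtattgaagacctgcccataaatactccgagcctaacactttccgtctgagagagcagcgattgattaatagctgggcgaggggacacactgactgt
Ier3 at chr17:35821463-35821762, plus strand: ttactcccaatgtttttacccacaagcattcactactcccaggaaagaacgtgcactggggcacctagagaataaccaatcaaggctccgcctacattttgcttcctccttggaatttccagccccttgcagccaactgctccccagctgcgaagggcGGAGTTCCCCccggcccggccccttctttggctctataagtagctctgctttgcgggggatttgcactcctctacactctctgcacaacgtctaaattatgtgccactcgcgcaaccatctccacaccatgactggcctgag

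Egr2 has 5 listed starts, and the window printed is 1 of the 4 that held a CArG box. It overlaps the windows that begin at 67537620 and 67537680, which hold the same box. The printed window also held 2 TGACG cores. The Ier3 window held 1 NF-kB site. The Egr2 window without a CArG box, not printed, held 2 overlapping matches to the NF-kB site. In all, 7 members were matched to 11 windows searched; Klf4 held 2 EGR sites and 1 TGACG core, and Klf6 held no match to the 7 motifs. A match is a run of letters and says nothing of whether a factor was bound.

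None of the 10 genes passed in knockout cells. In the limma fit across 45037 probe sets, 0 of 20 member probe sets were higher and 0 were lower at a Benjamini-Hochberg adjusted p under 0.05, where 1.19% of all probe sets passed. By gene, taking the brightest probe set of each, 0 of 10 passed beside 1.67% of all genes (1.08% higher and 0.591% lower). At an unadjusted p under 0.05, 3 of the 10 differed, Egr1, Nr4a1 and Ier3, beside 16.4% of all genes. The same 3 were the members whose groups did not overlap, beside 21.2% of all genes (10.6% in each direction). Of the 10 differences 6 were positive and 4 negative, with a median of 0.06, against -0.02 over all genes. The 95% limma interval lay within a 2-fold change either way for 8 of the 9 members that read above 9, Ier3 being the exception; Egr3 was too dim for its interval to be read this way. On simulated data the fit recovered 4% of log2 changes of 0.5 and 60% of changes of 1. Spreads there were shuffled over all probe sets, so these are not rates for the members.

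**Figure D1:**
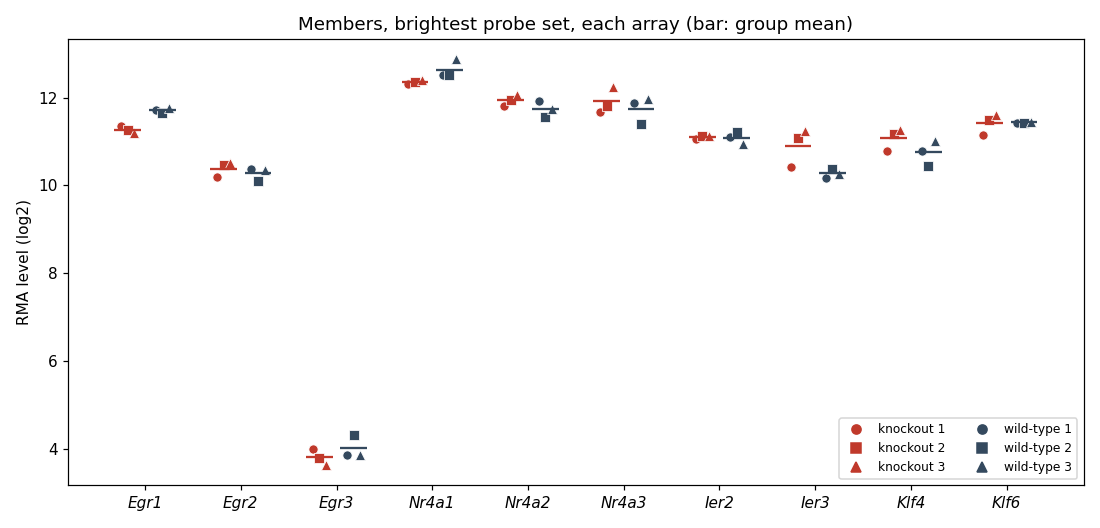
RMA level (log2, vertical axis) of the brightest probe set of each member in every array, knockout (red) left of wild-type (blue), with bars at group means. Egr1 and Nr4a1 lay lower and Ier3 higher in all 3 knockout arrays, and Egr3 read near the array median in both groups.

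The EGR genes encode zinc finger transcription factors. Egr1 is induced by growth factors and ERK signalling. It read 11.34, 11.25 and 11.20 in knockout arrays, against 11.71, 11.65 and 11.77 in wild-type arrays (log2, probe set 1417065_PM_at). All knockout values were below all wild-type values, and the groups were separated by more than either group's range. The difference was -0.44 with a standard error of 0.09 and a 95% interval of -0.66 to -0.23, a 1.36-fold lower signal that did not pass (limma adjusted p = 0.0737). At an adjusted p under 0.1 it would pass, as 1.59% of all genes did as lower. With variances fitted as a trend on the level, its limma adjusted p was 0.0185, where 0.871% of all genes passed as lower. Leaving out each array in turn gave -0.48 to -0.41, past the threshold in 0 of 6 fits.

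Egr2, which in T cells and macrophages restrains or shapes activation, read 10.19, 10.46 and 10.51 in knockout arrays, against 10.37, 10.11 and 10.35 in wild-type arrays (log2, 1427683_PM_at). The groups overlapped, and the difference was 0.11 with an interval of -0.18 to 0.39, or 0.025 without wild-type array 2 and 0.20 without knockout array 1. Its other probe set stood at -0.01 (interval -0.30 to 0.27), so Egr2 did not share the separation of groups seen for Egr1. Whether the Egr1 and Egr2 differences differ from each other was not tested.

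Egr3, a target of calcium and antigen receptor signalling in lymphocytes, read 3.998, 3.779 and 3.624 in knockout arrays, against 3.850, 4.315 and 3.852 in wild-type arrays (log2, 1421486_PM_at). These values lie near the array median, so the transcript may not be expressed, and a fold of so dim a signal is understated. The difference was -0.21 (interval -0.57 to 0.16).

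The NR4A genes encode orphan nuclear receptors whose activity is set mainly by how much of each protein is made. Nr4a1, or Nur77, which in mice is needed for a subset of monocytes, read 12.32, 12.37 and 12.40 in knockout arrays, against 12.52, 12.52 and 12.88 in wild-type arrays (log2, 1416505_PM_at). All knockout arrays were lower, and wild-type array 3 stood above the other two. The difference was -0.28 (SE 0.12, interval -0.56 to -0.0043, limma adjusted p = 0.397), and -0.16 without wild-type array 3.

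Nr4a2, or Nurr1, read 11.82, 11.94 and 12.06 in knockout arrays, against 11.93, 11.56 and 11.75 in wild-type arrays (log2, 1455034_PM_at). The groups overlapped, with a difference of 0.19 (interval -0.09 to 0.47). A pair of its further probe sets stood at 0.43 each, with wider intervals of -0.09 to 0.95 and -0.36 to 1.22, and its 2 dim probe sets stood at -0.02 and -0.05.

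Nr4a3, or NOR1, read 11.68, 11.81 and 12.25 in knockout arrays, against 11.87, 11.40 and 11.96 in wild-type arrays (log2, 1438796_PM_at). The difference was 0.17 (interval -0.28 to 0.61), and without wild-type array 2 it was -0.0026. Its second probe set varied within groups by more than the other member probe sets, at 5.74, 6.18 and 7.22 in knockout arrays, against 6.27, 5.11 and 6.82 in wild-type arrays. There the difference was 0.32 with an interval of -0.80 to 1.44, which does not exclude a 2-fold change. The third, dim probe set stood at -0.04.

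Ier2 and Ier3 encode small immediate-early proteins. Ier2 read 11.06, 11.12 and 11.12 in knockout arrays, against 11.10, 11.21 and 10.95 in wild-type arrays (log2, 1416442_PM_at). The groups overlapped around the same level, with a difference of 0.02 and an interval of -0.22 to 0.25.

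Ier3, or IEX-1, is an NF-kB-induced modulator of cell survival. It read 10.41, 11.08 and 11.24 in knockout arrays, against 10.17, 10.39 and 10.26 in wild-type arrays (log2, 1419647_PM_a_at). All 3 knockout arrays were higher, but knockout array 1 lay just above the highest wild-type array and apart from the other knockout arrays. The difference was 0.64 (SE 0.20, interval 0.17 to 1.11), a 1.56-fold higher signal that did not pass (limma adjusted p = 0.227). Without knockout array 1 it was 0.89 and passed (limma adjusted p = 0.0199), where 1.45% of all genes passed as higher, and it passed in none of the other 5 fits with 1 array left out, in which it ran down to 0.47.

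Klf4 and Klf6 encode Krüppel-like zinc finger factors; Klf4 is required for monocyte differentiation in mice, and Klf6 takes part in macrophage activation. Klf4 read 10.79, 11.16 and 11.26 in knockout arrays, against 10.79, 10.45 and 11.02 in wild-type arrays (log2, 1417394_PM_at). The groups overlapped, with a difference of 0.32 (interval -0.09 to 0.72) on this probe set and 0.24 (interval -0.35 to 0.83) on the other. Without wild-type array 2 the first was 0.17, and without knockout array 1 it was 0.46.

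Klf6 read 11.16, 11.49 and 11.61 in knockout arrays, against 11.43, 11.43 and 11.44 in wild-type arrays (log2, 1427742_PM_a_at). The wild-type values fell inside the knockout range, and the difference was -0.02 (interval -0.31 to 0.28). Its other probe sets stood at 0.08 and 0.05, and 11.03 in wild-type array 3 against 10.44 in wild-type array 2 on the first of these shows a wider wild-type spread than the brightest probe set had.

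**Figure D2:**
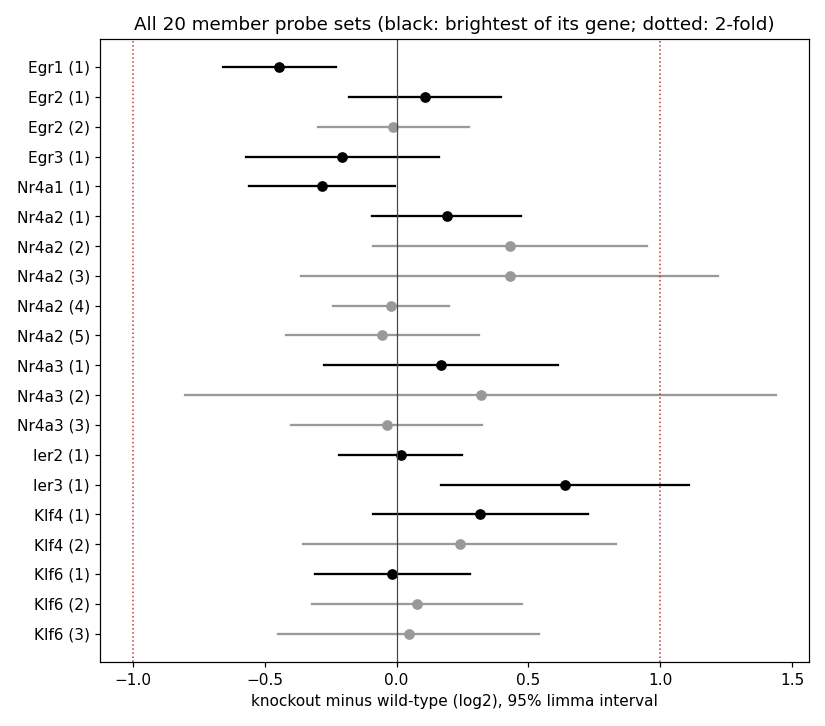
Difference between knockout and wild-type arrays (log2, horizontal axis) for the 20 member probe sets, with 95% limma intervals, black for the brightest probe set of a gene and dotted lines at a 2-fold change. The intervals of 17 of the 20 probe sets, dim ones included, lie between the dotted lines, and those of Egr1, Nr4a1 and Ier3 leave out 0.

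In the knockout group most members were low and high in the same arrays. Knockout array 1 was the lowest of the knockout arrays for 8 of the 10 genes, beside 29.3% of all genes, and knockout array 3 the highest for 7, beside 30.1%. The exceptions to the first count were Egr1 and Egr3, which were highest in knockout array 1. In wild-type cells array 2 was the lowest for 5 of the 10 genes (29.2% of all genes) and array 3 the highest for 5 (33.7%), with both true of 3, while Egr3, Ier2 and Ier3 were highest in wild-type array 2. The median deviation of the 10 genes from their own group mean was -0.16, 0.01 and 0.12 in knockout arrays 1, 2 and 3, and 0.01, -0.09 and 0.03 in wild-type arrays 1, 2 and 3 (log2). Over the 2063 genes at a level of 9 or above, where 9 of the 10 members lie, these medians were 0.03, 0.02 and -0.04 in knockout arrays and 0.02, 0.01 and -0.02 in wild-type arrays. Quantile normalization holds the median over all genes near 0, so the deviations are relative to the rest of each array. This pattern was noticed in the data and is given as a description.

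The 42 measured genes of a list of other immediate-early genes, AP-1 subunits among them, were also often low and high in these arrays. Knockout array 1 was lowest for 30 of the 42 and knockout array 3 highest for 27, and wild-type array 2 was lowest for 28 and wild-type array 3 highest for 26. Among the upstream transcription factors knockout array 1 was lowest for 8 of 14 and knockout array 3 highest for 10, and among 11 other KLF genes these counts were 5 and 6. Among 13 MAP kinase genes they were 5 and 3. Whether the lists differ in this was not tested. Summed over the 10 members, the linear signal was 23400, 26200 and 28500 in knockout arrays, against 26100, 23800 and 27800 in wild-type arrays, and these ranges overlapped. The summed macrophage markers ran the other way among knockout arrays, at 3950, 3600 and 2640. The summed monocyte markers did so in both groups, at 2160, 1710 and 1290 in knockout arrays and 2540, 2650 and 2100 in wild-type arrays. Most of that sum is the signal of 1 gene, Treml4, at 10.41, 9.78 and 9.39 in knockout arrays and 10.84, 11.05 and 10.46 in wild-type arrays (log2). The erythroid sum was lowest in knockout array 3 and wild-type array 3. The part of these cells in the pattern was not tested, and the labels name no batch or handling time.

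**Figure D3:**
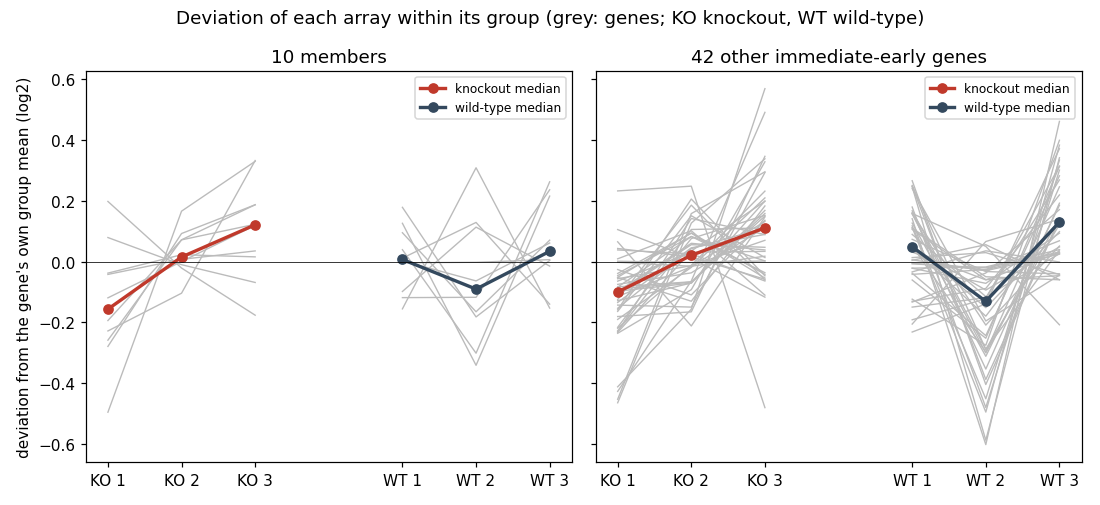
Deviation of each array from a gene's own group mean (log2, vertical axis) for the 10 members and for the 42 other immediate-early genes, grey lines joining the 3 arrays of a gene and coloured points giving medians. Members were low in knockout array 1 (median -0.16) and high in knockout array 3 (0.12), and the other immediate-early genes were low in wild-type array 2 as well.

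The genes around the members were taken from lists chosen with earlier results of these data known. Of the 42 other immediate-early genes 1 rose, 1 fell and 40 did not pass, beside 1.08% of all genes that rose and 0.591% that fell, with a median difference of 0.05. Their groups did not overlap for 16, 11 of them higher and 5 lower, beside 10.6% of all genes in each direction. Ier5l, a relative of the IER2 and IER5 proteins, rose by 0.92 (SE 0.15, limma adjusted p = 0.0367), with 5.89, 6.03 and 6.46 in knockout arrays, against 5.31, 5.15 and 5.16 in wild-type arrays. Klf2, a factor that keeps lymphocytes and myeloid cells quiescent, fell by 0.67 (SE 0.12, limma adjusted p = 0.0444). When each array was left out in turn, Ier5l passed without knockout array 1 or 3 (1.04 and 0.75) and not in the other 4 fits, and Klf2 passed in 0 of 6 (-0.77 to -0.60).

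Among 11 other KLF genes 2 rose, 1 fell (Klf2) and 8 did not pass, beside 1.08% of all genes that rose and 0.591% that fell, with a median difference of 0.11. Klf9, a glucocorticoid-induced repressor, read 8.29, 8.53 and 9.08 in knockout arrays, against 6.78, 6.49 and 6.95 in wild-type arrays. It rose by 1.89 (SE 0.21, limma adjusted p = 0.00867), or by 0.94 when its probe sets were averaged. Klf13, which in T cells promotes chemokine transcription, read 9.38, 9.81 and 10.04 in knockout arrays, against 8.55, 8.43 and 8.45 in wild-type arrays, and rose by 1.27 (SE 0.16, limma adjusted p = 0.0139), or by 0.80 when its probe sets were averaged. For both, all knockout arrays were above all wild-type arrays; whether these differences exceed those of Klf4 and Klf6 was not tested. With 1 array left out Klf9 did not pass without knockout array 2 (1.94) or wild-type array 1 (1.91), and Klf13 did not pass without knockout array 2 (1.23) or wild-type arrays 1 and 2 (1.30 and 1.24).

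Among the partners, upstream factors and MAP kinases of the members, only Rxrb and Mapk13 passed. Over all genes 1.08% rose and 0.591% fell. Of 5 partner genes, Rxrb, a dimer partner of Nr4a1 and Nr4a2 proteins, rose by 0.50 (SE 0.09, limma adjusted p = 0.0492, and 4 of 15 passes under alternative fits, with 0 of 6 when each array was left out and 0.0867 with limma-trend), and 0 fell. Nab2, an EGR corepressor that EGR proteins induce, stood at -0.33 (limma adjusted p = 0.456). Of 14 genes for SRF, its ternary complex and myocardin-related partners, CREB and MEF2 factors, 0 passed (median -0.04). The SRF partner Elk4 stood at 0.51 and the CREB coactivator Crtc3 at 0.49 (limma adjusted p = 0.178 and 0.182), or at 0.23 and 0.27 with probe sets averaged. In this list the groups did not overlap for 2 higher genes, Elk4 and Crtc3, and for 3 lower ones. The share of all genes was 10.6% in each direction. Among these lower ones were the SRF coactivator Mrtfa (-0.54) and Mef2c (-0.37). Of 13 MAP kinase genes Mapk13, or p38 delta, rose by 0.92 (SE 0.16, limma adjusted p = 0.0404), passing without knockout array 3 (1.06) and in none of the other 5 fits with 1 array left out, and 0 fell. The p38 kinase Map2k3 stood at 0.41 (limma adjusted p = 0.164). Among the MAP kinase genes the groups did not overlap for 4 higher and 4 lower ones, beside 10.6% of all genes in each direction. The lower ones include Mapk9 (-0.40) and Map2k1 (-0.34).

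**Figure D4:**
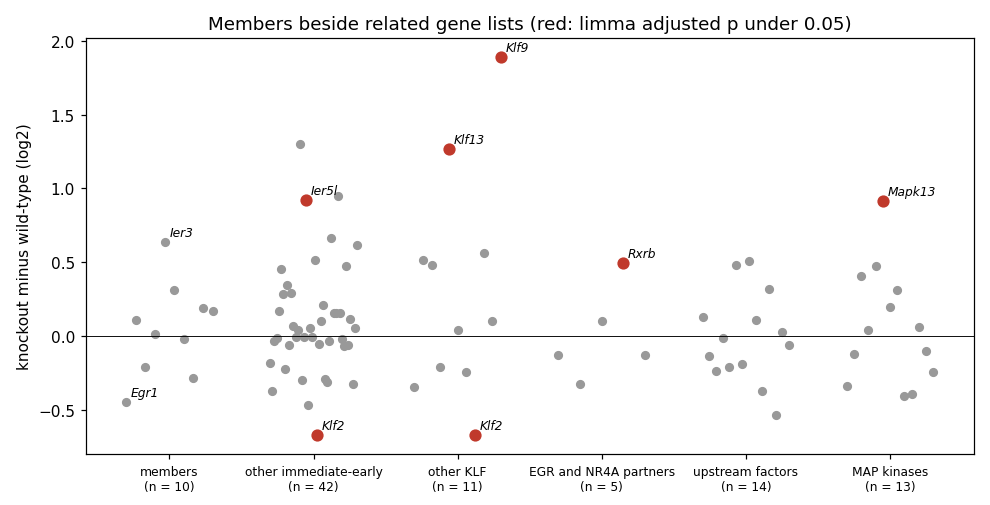
Difference between knockout and wild-type arrays (log2, vertical axis) for the 10 members and 5 related lists, 1 point per gene, red where the limma adjusted p was under 0.05. The members span -0.44 (Egr1) to 0.64 (Ier3) with 0 red points, while Klf9 (1.89) and Klf13 (1.27) are the highest of the KLF points; Klf2 appears in both lists that hold it.

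The genes whose pattern over the 6 arrays was nearest to the 3 members with the largest differences were found by the root mean square of the difference between patterns, each gene set relative to its wild-type mean. Nearest to Egr1 were Nup107, Smc4 and Gpr161, at 0.03 to 0.04 on the log2 scale, and their own differences were -0.43, -0.42 and -0.47. Nearest to Ier3 were Prpf18, Pgs1 and Insl3 (0.08 to 0.11). Nearest to Klf4 were Cyp4f16, Wipf1 and Sec24a (each about 0.06 to 0.07). With 17097 genes and 6 arrays some near patterns arise for any gene. The likeness of their values follows from how these genes were chosen, so these are descriptions only.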

How the data were processed

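RNA from 3 knockout and 3 wild-type samples was measured on 1 Affymetrix 3′ expression array each, from 100 ng of RNA per sample. The submitters' processing notes name RMA and version 1.1 of Affymetrix Expression Console. The authors' deposited values span the range of log2 RMA output; this method subtracts background, equalizes the arrays' quantiles, combines the probes of a probe set and gives no detection call. The table held 45141 probe sets; 104 Affymetrix controls were left out and 45037 tested, of which 28898 had 1 gene symbol in the platform annotation, 551 several and 15588 none. No pair of arrays was identical (0 pairs). Knockout minus wild-type differences came from limma 3.58.1 under R 4.3.3 (lmFit and eBayes without covariates) and Benjamini-Hochberg adjustment over all 45037 probe sets, at a threshold of 0.05. For counts of genes the brightest probe set of each gene was used. On simulated data log2 changes of 2 were recovered in 88% of cases and changes of 3 in 98%, and 5 of 130 calls were false. Changed probe sets were at or above the median level, and the residual SDs were shuffled over all probe sets. Precision is set by the number of arrays, which carry no depth. Members, gene lists and tests were chosen with earlier results of these data known. Named genes were Map3k7, the members and genes from each list. A list gave all genes past the threshold up to 6, or the 2 with the smallest p where fewer than 2 passed. Of the marker lists, passing genes are given, with others chosen after their values were seen. These others are Itgax, markers or list genes whose groups did not overlap, and the remaining monocyte and neutrophil markers. Figures were drawn with matplotlib 3.10.9.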

Additional observations from a re-analysis of the deposited data

How the results depend on the processing

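Of 170 member differences under alternative settings, 159 kept their sign and their side of the threshold, 6 passed where they had not, and 5 changed sign. Those that changed sign were close to 0: Klf6 stood at 0.0051 after a second quantile normalization, at 0.037 with its probe sets averaged, and from -0.11 to 0.11 with 1 array left out, Nr4a3 from -0.0026 to 0.28 and Ier2 from -0.054 to 0.081 with 1 array left out. The T cell marker Cd3g ran from -0.26 to 0.019 with 1 array left out. Lower members, as probe sets or genes, numbered 0 in the fit as reported, 1 (Egr1) with limma-trend or at an adjusted p under 0.1, and 2 at an unadjusted p under 0.05. Higher members numbered 1 (Ier3) at an unadjusted p under 0.05, and 0 to 1 with 1 array left out. Higher genes among the other immediate-early genes numbered 2 at an adjusted p under 0.1, 3 with limma-trend, 2 with the replicate block, 8 at an unadjusted p under 0.05 and 0 to 1 with 1 array left out. Lower ones numbered 2 at an adjusted p under 0.1, 2 with limma-trend, 2 on means of probe sets, 0 after quantile normalization, 4 at an unadjusted p under 0.05 and 0 with 1 array left out. The causes were not tested, beyond the fewer arrays of a left-out fit. The replicate numbers were not taken as pairs. Deviations of same-numbered arrays correlated at 0.08, 0.15 and 0.37. Knockout replicates 2 and 3 correlated best with the same-numbered wild-type replicate, and knockout replicate 1 with wild-type replicate 2 (0.28). With the replicate block 0 members passed. For the erythroid markers the block moved the limma adjusted p of Hbb-b2 from 0.0325 to 0.000794 and that of Hba-a1 from 0.0713 to 0.00013. Depth is not known for arrays, and the dim probe sets of Egr3, Nr4a2 and Nr4a3 lie too near the array median for a difference to be read.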
